A study of Mus musculus with 36 samples.

Results

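The comparison described here set the Ikaros series against the Control series 24 h after induction, in the mouse pre-B cell line B3. It took 6 of the 36 samples of the series, 3 of Ikaros cells and 3 of Control cells, and they were chosen by their labels alone. Ikaros cells had been transduced with a murine stem cell virus (MSCV) vector for HA-Ikaros-ERt2-IRES-GFP, and Control cells with an ERt2-IRES-GFP vector without Ikaros. Both received 0.5 uM 4-hydroxytamoxifen (4-OHT) for 24 h, so that the drug and the ERt2 domain were common to the 2 groups. The duration is that of the time label and of the study's methods, while the protocol text in the labels gives 2 h for every sample. Each group was a pool of transduced cells that had been sorted on GFP, not a clone. The 3 replicates of a group belonged to batches 1, 3 and 4, which were separate runs of the time course, and the same batches were used for both groups. The other 30 samples covered 0, 2, 6, 12 and 18 h and are used below to place the 24 h values, to estimate the spread in fits of all 36 samples, and as the other side of the tests of 24 h against other times.

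Ikaros is a zinc finger transcription factor of lymphoid cells. In pre-B cells it represses the genes of the proliferating stage and works with chromatin complexes such as NuRD, and its fusion to ERt2 keeps it in the cytoplasm until 4-OHT is added. Methylation of the cytosine in a CG dinucleotide (CpG) is copied to the new strand after replication by Dnmt1. CG-rich promoters are usually free of it, and most CpGs inside genes and between genes carry it. Reduced representation bisulfite sequencing (RRBS) cuts the genome with MspI at CCGG and reads the fraction of methylated molecules at the CpGs nearby, which favours promoters and CpG islands.

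A CpG cluster is a run of listed cytosines at most 100 bp apart. Of 18009 clusters, 17829 held at least 1 cytosine with a value in all 6 samples, and the methylation level of a cluster was the mean over those cytosines, in percent. The level is an average over cells and alleles. A mean level of 50% can stem from different mixtures of methylated and unmethylated molecules, which these tables cannot separate. The tables give no reads, so the depth at each position is unknown. Positions without a value made up 0.110%, 0.214% and 0.298% of the 3 Control samples and 1.45%, 3.18% and 0.831% of the 3 Ikaros samples. Smoothed levels at exactly 0 or 1 made up 28.7%, 30.5% and 29.1% in Control and 41.4%, 59.1% and 41.3% in Ikaros. Both measures thus separated the groups in the same way as the cell series, with Ikaros replicate 2 the highest in each, and their part in the differences given below was not tested except where a fit with both as covariates is named. Clusters near the starts of Pax5, Ebf1 and Vpreb1, B-lineage genes that pre-B cells use, had levels from 0% to 1.74% in all 6 samples. The levels do not measure expression, and 7 of the 10 B-lineage markers had no cluster within 1000 bp of a start.

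The library labelled Control 24 h replicate 2 went against its label. Clusters that differed between the series at the other 5 time points were found with limma on the 30 samples without the 24 h ones, where 731 of 16717 clusters (4.37%) passed an adjusted p under 0.05. On a scale where the mean of the 15 Control samples among those 30 is 0% and that of the 15 Ikaros samples is 100%, Ikaros 24 h replicates 1, 2 and 3 stood at 90.9%, 110% and 90.9%. Control 24 h replicates 1 and 3 stood at 5.49% and 1.40%. Control 24 h replicate 2 stood at 76.9%, nearer the Ikaros mean. Over the 533 clusters that were higher in Ikaros it stood at 71.9%, below the Ikaros samples (93.8% to 117%). Over the 198 that were lower it stood at 93.7%, beyond the Ikaros samples (72.7%, 84.9% and 81.1%). Its shares of empty positions and of levels at 0 or 1, given above, lay within the ranges of both series at the other times (from 0.139% to 1.07% and from 26.9% to 45.0% in the 15 Ikaros samples, and from 0.121% to 11.6% and from 21% to 36.2% in the 15 Control samples). Within 24 h they were close to those of the other Control samples and below those of each Ikaros sample. Results are therefore given with and without it.

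**Figure D1:**
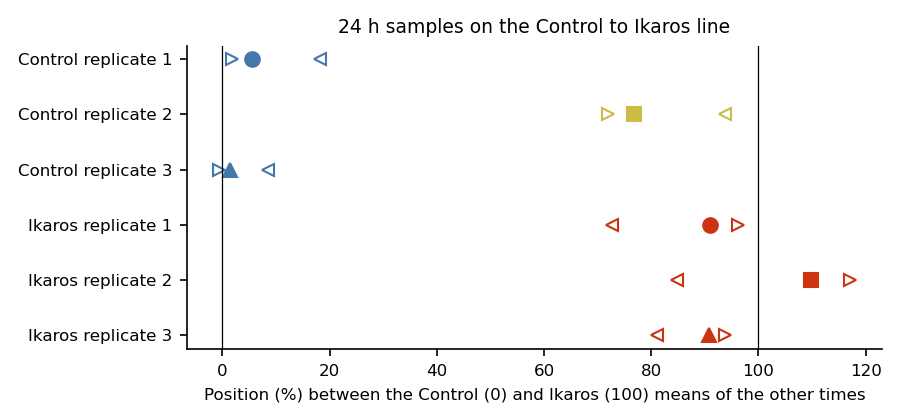
Position of each 24 h sample (rows) on the scale between the means of the Control samples (0) and the Ikaros samples (100) of the other time points, in percent, over 731 clusters chosen without the 24 h samples. Filled symbols are all 731 clusters, right-pointing triangles the 533 higher in Ikaros and left-pointing triangles the 198 lower. Over all 731 clusters Control replicate 2 lies at 76.9%, between the other Control samples and the Ikaros samples, and over the 198 lower clusters it lies at 93.7%, beyond the Ikaros samples.

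Sequences of 4 stretches illustrate the DNA behind these levels. They come from GRCm38.p6, the build of the files, plus strand, 5′ to 3′, and capitals mark the CG dinucleotides with a cytosine that had a value in all 6 samples. The first capital in the Fgf9 stretch is the G of such a dinucleotide, whose C lies just before the stretch. The first sequence lies upstream of Rtn4rl2 (chr2:84886853-84887092, 143 bases before the start of the gene, which is on the minus strand) and belongs to the cluster with the smallest adjusted p when 24 h was set against the other times. The second lies in an intron of Nol4l (chr2:153443896-153444135) and stands for differences already present at other times. The third lies between genes, near Arhgap23 (chr11:97404259-97404498), and stands for clusters away from promoters. The fourth is the whole cluster in an intron of Fgf9 (chr14:58071159-58071324) and stands for clusters that were lower in Ikaros at 24 h.
Rtn4rl2: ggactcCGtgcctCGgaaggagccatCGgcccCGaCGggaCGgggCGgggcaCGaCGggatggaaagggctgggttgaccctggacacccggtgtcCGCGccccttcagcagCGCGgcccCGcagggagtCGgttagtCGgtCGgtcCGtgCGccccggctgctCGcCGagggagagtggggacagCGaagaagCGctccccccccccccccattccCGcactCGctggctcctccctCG
Nol4l: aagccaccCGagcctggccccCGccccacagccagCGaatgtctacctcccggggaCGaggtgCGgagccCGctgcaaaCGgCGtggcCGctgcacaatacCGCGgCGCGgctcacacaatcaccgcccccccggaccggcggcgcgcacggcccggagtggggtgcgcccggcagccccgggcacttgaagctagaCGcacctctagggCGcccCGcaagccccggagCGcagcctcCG
Arhgap23: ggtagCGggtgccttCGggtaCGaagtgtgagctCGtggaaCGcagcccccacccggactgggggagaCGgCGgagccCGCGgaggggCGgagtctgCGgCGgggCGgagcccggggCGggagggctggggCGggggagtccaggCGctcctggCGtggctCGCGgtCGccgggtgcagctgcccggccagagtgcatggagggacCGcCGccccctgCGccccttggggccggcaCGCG
Fgf9: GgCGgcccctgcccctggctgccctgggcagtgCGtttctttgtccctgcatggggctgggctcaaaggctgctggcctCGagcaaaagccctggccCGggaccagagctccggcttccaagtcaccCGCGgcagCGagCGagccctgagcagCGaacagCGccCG
The GC content of the 4 stretches was 73.8%, 75%, 78.3% and 70.5%, and 26 of 28, 18 of 31, 25 of 30 and 11 of 12 of their CG dinucleotides were measured. In the stretch upstream of Rtn4rl2, which held 52 measured cytosines, the mean level was 82.9%, 66.2% and 79.8% in Ikaros replicates 1 to 3 and 59.2%, 46.0% and 48.1% in Control replicates 1 to 3. The difference of the group means ran from 9.87 to 43.7 percentage points along it and was positive at each cytosine. Single samples crossed within the stretch, however. At 3 bp past the cluster centre Control replicate 1 (78.8%) lay above Ikaros replicates 1 and 3 (73.9% and 63.4%). At 118 bp Ikaros replicate 2 (30.2%) lay below Control replicate 1 (52.4%). In the Nol4l stretch the Ikaros samples were at 41.6%, 35.9% and 44.2%, Control replicates 1 and 3 at 8.54% and 7.02%, and Control replicate 2 at 27.8%. Along the stretch near Arhgap23 the difference was from -3.63 to 59.5 points. In Fgf9 it was from -29.4 to 0.339 points.

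**Figure D2:**
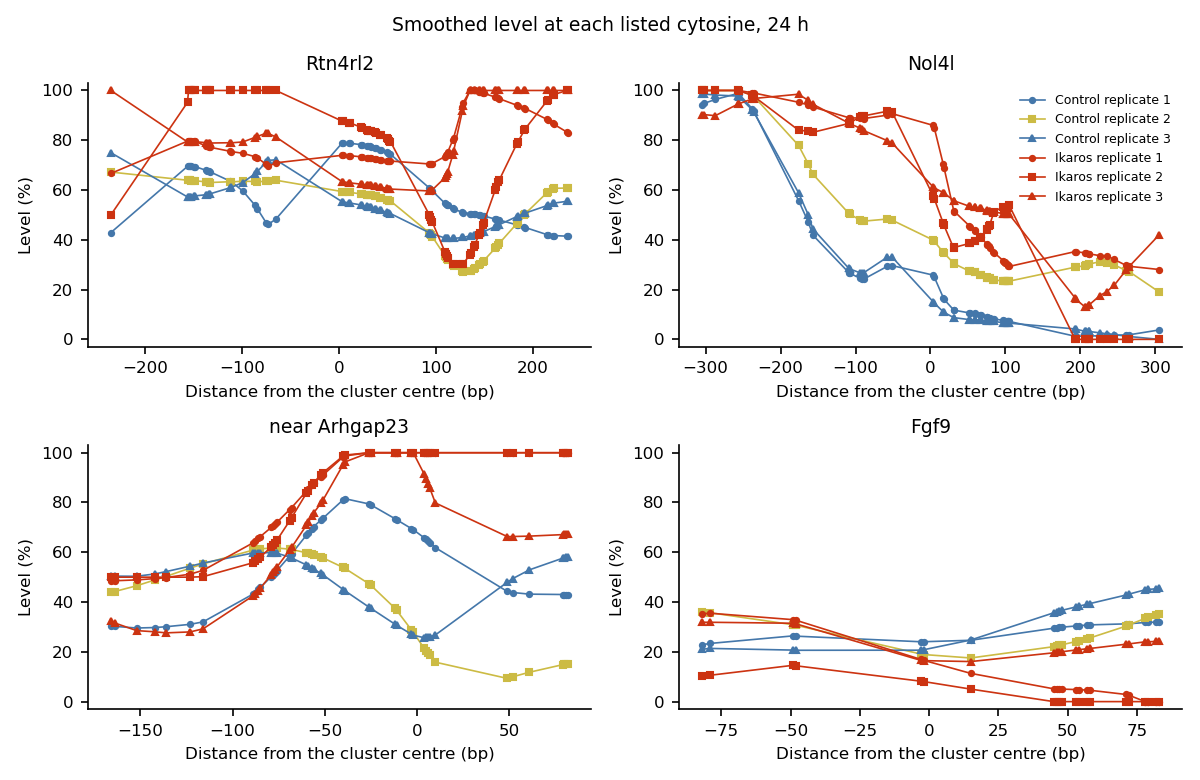
Smoothed methylation level (percent) at each cytosine with a value in all 6 samples, against its distance from the centre of the cluster in base pairs, for the 4 clusters whose sequences are shown. Each line is 1 sample at 24 h, with Ikaros in red, Control replicates 1 and 3 in blue and Control replicate 2 in yellow. In Nol4l the yellow line lies between the others over most of the cluster, while in Rtn4rl2 it lies among the Control lines.

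Over all 17829 clusters the Ikaros samples had the higher mean level. It was 47.5%, 47.4% and 47.4% in Ikaros replicates 1 to 3 and 47.0%, 46.8% and 46.8% in Control replicates 1 to 3. The groups did not overlap, and the difference was 0.563 percentage points (47.4% ± 0.0404 against 46.9% ± 0.0782, SD, n = 3 each). The two-sided exact permutation test gave p = 0.10, the smallest that 3 against 3 can give, so the design cannot reach 0.05. Without Control replicate 2 the difference was 0.550 points (exact p = 0.20, the smallest that 3 against 2 can give). The library labelled Control replicate 2 lay between the other Control libraries in this mean.

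Clusters that were partly methylated carried the widest gap. Clusters were classed by their mean level in the 30 samples of the other times, so that no 24 h value entered the class. Among 2081 clusters from 10% to 90%, the Ikaros samples had mean levels of 62.1%, 63.4% and 62.9% and the Control samples 60.7%, 59.4% and 60.1%, a difference of 2.73 points (2.40 without Control replicate 2). In 7355 clusters over 90% the difference was 0.431 points, and in 8393 clusters under 10% it was 0.140 points. Near transcription starts (within 1000 bp, 14466 clusters) it was 0.559 points, in genes away from starts (2175 clusters) 0.583 points and between genes (1188 clusters) 0.570 points. In each of these 7 sets of clusters, all of them included, all 3 Ikaros samples were above all 3 Control samples, with exact p = 0.10 before and after Benjamini-Hochberg adjustment over the 7 tests.

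**Figure D3:**
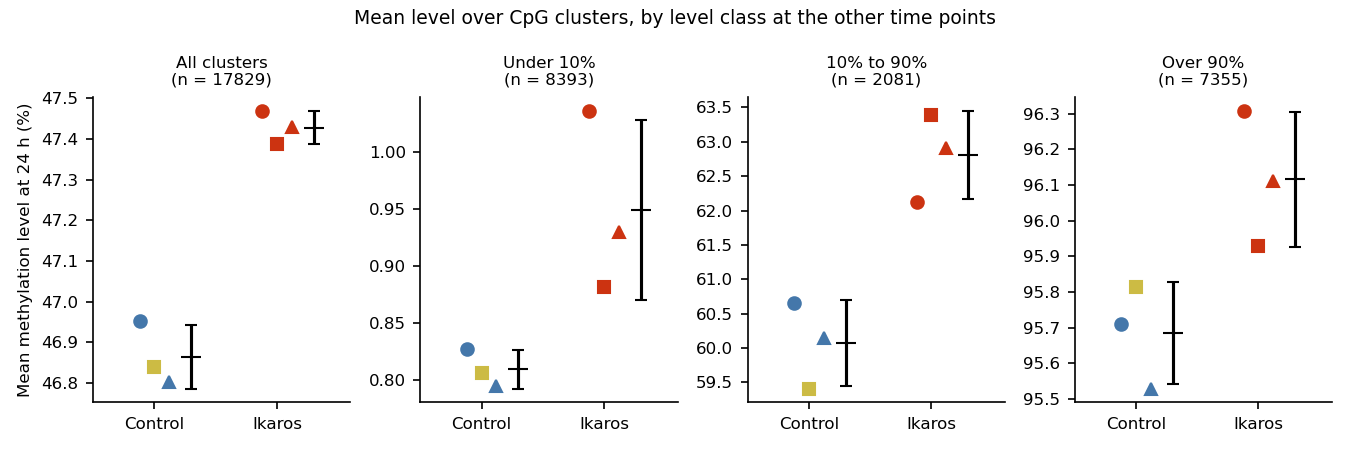
Mean methylation level (percent) of each 24 h sample over all clusters and over clusters under 10%, from 10% to 90% and over 90% at the other time points, with each panel on its own axis, which does not start at 0. Circles, squares and triangles are replicates 1, 2 and 3 (Control replicate 2 in yellow), and bars give the mean ± SD (n = 3). The Ikaros samples lie above the Control samples in each panel, by 2.73 points in the middle class.

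The gap between the series was lower at each earlier time. Over the 16853 clusters with a level in all 36 samples, here averaged over each sample's own positions, Ikaros exceeded Control by 0.164, 0.269, 0.276, 0.380 and 0.390 points at 0, 2, 6, 12 and 18 h and by 0.564 points at 24 h. The Ikaros mean was 46.0% ± 0.217 at 0 h and 46.2% ± 0.0302 at 24 h, and the Control mean 45.9% ± 0.164 and 45.6% ± 0.0743 (SD, n = 3 each). No test of this course was made. In all 3 Ikaros samples of 24 h the shares of empty positions and of exact 0 or 1 levels lay above the Ikaros medians of the other times, which were 0.294% and 34.0% (0.362% and 26.1% in Control), and their part in the course was not tested.

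No single cluster passed the threshold with the 6 samples alone. With limma on M-values (the log2 ratio of methylated to unmethylated, from the level limited to 0.01 to 0.99), 0 of 17293 clusters (0%) reached an adjusted p below 0.05. Before adjustment 1581 (9.14%) had p under 0.05, of which 1375 were higher in Ikaros and 206 lower. Without Control replicate 2 the counts were 0 of 17132 (0%) and 1511 (8.82%). The smallest adjusted p was 0.165 with 6 samples and 0.178 with 5.

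Levels of the 2 groups did not overlap in 1744 clusters where Ikaros was higher (9.78% of 17829) and in 645 where it was lower (3.62%). Without Control replicate 2, fewer samples had to be separated, and the counts were 2807 (15.7%) and 1189 (6.67%). Among clusters that were apart, 312 were higher by over 5 points and 59 lower, 115 and 13 by over 10 points, and 26 and 5 by over 20 points. These counts were 502 and 142, 185 and 42, and 42 and 9 without Control replicate 2. The median difference over all clusters was 0.18 points, with quartiles of -0.25 and 1.04 points. Of the 312 clusters, 226 were in the partly methylated class, which is 10.9% of that class, compared with 1.03% of the class over 90%, 0.119% of the class under 10% and 1.75% of all clusters. Of the 59 lower ones, 26 were partly methylated, which is 1.25% of the class compared with 0.331% of all. These 226 and 26 became 369 and 82 without Control replicate 2.

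The clusters described next had the largest differences of the level among those whose groups did not overlap, 8 in each direction. They were ranked by this difference, so their values are a description, and none passed limma with 6 samples. Rnf150, which codes for a RING finger protein, was first. Its cluster (chr8:82863479-82863833, 28 cytosines, over the transcription start and in the 5′ UTR) had 68.1%, 100% and 61.8% in Ikaros replicates 1 to 3 and 54.6%, 19.6% and 42.8% in Control replicates 1 to 3. The difference of 37.6 points fell to 27.9 without Control replicate 2. Averaged over each sample's own positions it was 22.8 points at 24 h, and the groups overlapped, with the lowest Ikaros sample at 39.3% and the highest Control sample at 60.8%. On that scale the difference at the other times was from -26.8 to 25.4 points, a range that holds the value at 24 h. The differences given for the other times are on this scale for each cluster.

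Mfsd4a, a membrane transporter of the major facilitator family, was higher by 35.1 points (chr1:132067746-132068248, over the start and the first coding exon). Its Ikaros samples had 89.8%, 93.1% and 85.7% and its Control samples 58.6%, 45.2% and 59.6%, so that the nearest samples of the groups were 26.1 points apart. The same sign was seen at the other times, with differences from 6.86 to 29.0 points. Ephb6, an ephrin receptor without kinase activity, was at 81.2%, 77.5% and 77.9% in Ikaros and at 40.0%, 71.0% and 37.8% in Control (chr6:41605257-41605789, over the start). Here Control replicate 2 lay close to the Ikaros samples, and the difference rose from 29.2 to 39.9 points without it. At the other times the difference was 29.7 points on average, from 23.9 to 38.4. Nol4l had the same pattern, with 57.1%, 50.8% and 57.3% in Ikaros and 23.6%, 41.8% and 23.2% in Control, and a mean difference of 30.8 points at the other times.

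The remaining higher clusters had smaller mean differences at the other times. Near Arhgap23, an intergenic cluster 10951 bp from the start (chr11:97404250-97404582) had 83.1%, 81.4% and 66.5% in Ikaros and 55.0%, 42.6% and 48.1% in Control. Trim68, a ubiquitin ligase of the tripartite motif family, had 45.7%, 65.0% and 41.4% in Ikaros and 25.5%, 19.7% and 21.8% in Control over its start (chr7:102687055-102687434). Zhx2, a homeobox transcriptional repressor, had 53.7%, 76.4% and 70.1% in Ikaros and 40.4%, 40.4% and 43.2% in Control over its start (chr15:57695477-57695818). In these 3 clusters Control replicate 2 was not the Control sample nearest to Ikaros. Gm9762, a predicted gene (chr3:78966930-78967079, 131 bp from the start), was higher by 26.5 points. At the other times the mean differences of Arhgap23, Trim68, Zhx2 and Gm9762 were 6.48, -1.78, 7.32 and 3.45 points.

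In the opposite direction, Pkp2, a desmosome protein, had 0%, 43.8% and 46.0% in Ikaros and 63.5%, 50.6% and 60.6% in Control (chr16:16213201-16213475, over the start and coding sequence). The difference was -28.3 points, and the smoothed level of Ikaros replicate 1 was exactly 0. Without that sample it was -13.3 points. Atg14, a subunit of the lipid kinase complex that starts autophagy, had 28.2%, 6.84% and 24.9% in Ikaros and 58.0%, 31.3% and 53.1% in Control (chr14:47568169-47568476). Control replicate 2 was the lowest Control sample there, and the difference was -27.5 points with it and -35.6 without. Npl, an enzyme of sialic acid breakdown, had 44.8%, 22.5% and 38.9% in Ikaros and 53.8%, 70.9% and 54.6% in Control, over 10 cytosines at its start (chr1:153549564-153549895). The direction of the means at 24 h was opposite to that of the other times, when Ikaros was higher by 7.99 to 36.03 points. The groups overlapped at each of those times, and at 0 h the Control samples ran from 9.98% to 78.6%. The limma adjusted p was 0.255 for the series outside 24 h and 0.427 for 24 h against the other times. Neither passed. With each sample averaged over its own positions, as at the other times, Npl had a difference of -34.6 points at 24 h.

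Several of the lower clusters rested on 1 library. Rab42, a small GTPase (chr4:132303227-132303384, 1 bp from the start), had 2.36% in Ikaros replicate 2 against 41.5% and 35.2% in the other Ikaros samples, and Control replicate 2 (42.0%) lay next to Ikaros replicate 1. Its difference was -24.2 points, and -12.2 without Ikaros replicate 2. Dhx34, an RNA helicase of nonsense-mediated decay, was measured in coding sequence (chr7:16218184-16218316) and had 54.5% in Ikaros replicate 2 and 94.2% and 91.3% in the others, against 95.7%, 100% and 96.7% in Control. Its difference of -17.5 points became -4.71 without that sample. An intergenic cluster 7365 bp from the start of Gm43909 (chr6:145855765-145855932) had 74.5% in Control replicate 3 and 28.6% and 35.6% in the other Controls, and its difference of -27.1 points became -12.9 without Control replicate 3. Fgf9, a growth factor gene, was at 10.8%, 3.39% and 22.9% in Ikaros and at 28.7%, 27.4% and 34.1% in Control. Its difference at the other times ran from -12.9 to 33.3 points. The 33.3 points were at 0 h, when Ikaros was higher and the groups did not overlap. AC127693.1, an unnamed transcript (chr17:69475499-69475642), was at 62.0%, 52.8% and 68.6% in Ikaros and at 77.4%, 73.2% and 75.1% in Control. Of the 8 lower clusters, 2 had the same sign at the other times on average, compared with 6 of the 8 higher ones.

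**Figure D4:**
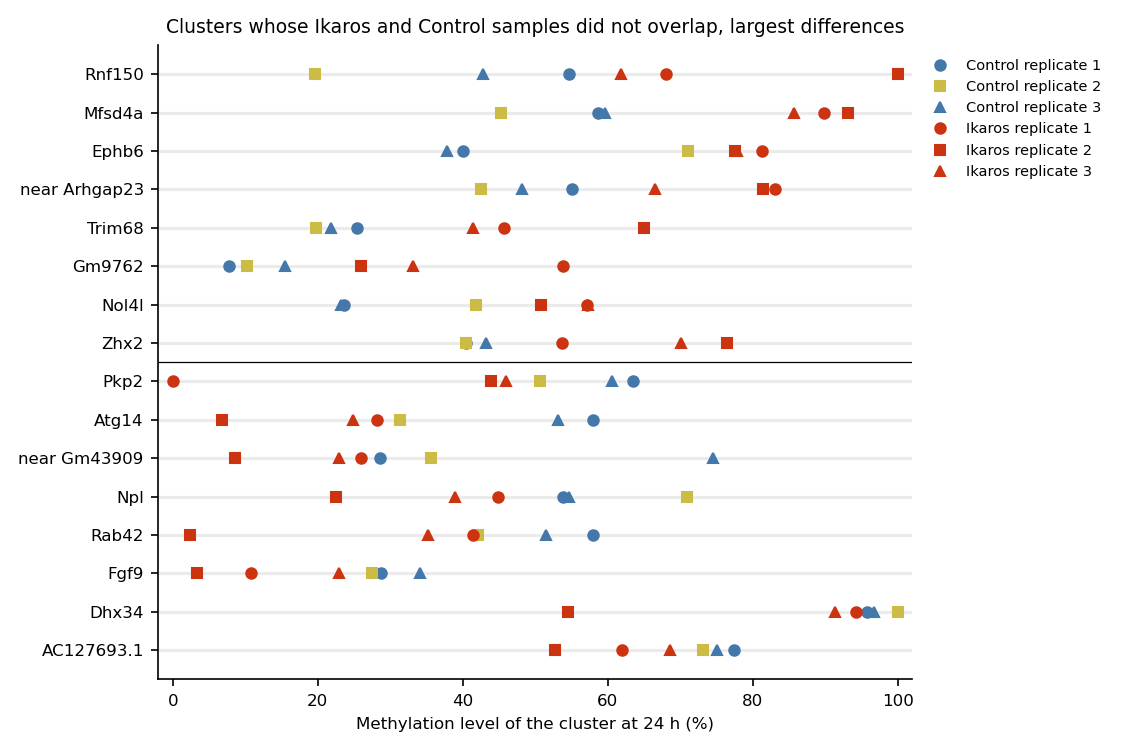
Methylation level (percent) in each 24 h sample for the 16 clusters with the largest differences among those whose groups did not overlap, 8 higher in Ikaros above the line and 8 lower below it. Red marks Ikaros, blue Control replicates 1 and 3, and yellow Control replicate 2. In Ephb6 and Nol4l the yellow symbol lies next to the Ikaros samples, and in Pkp2, Dhx34 and near Gm43909 1 library lies far from the others of its group.

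Clusters that differed between the series outside 24 h mostly differed in the same direction at 24 h. Of the 533 clusters that were higher in Ikaros at the other times, 471 (88.4%) were higher at 24 h, compared with 60.6% of all clusters, and 146 (27.4%) did not overlap, compared with 9.78%. Without Control replicate 2 the last number was 287 (53.8%), compared with 15.7%. The median difference of these clusters was 2.76 points at 24 h and 3.52 points without that library, and 4.08 points at the other times. Of the 198 clusters that were lower in Ikaros at the other times, 135 (68.2%) were lower at 24 h, compared with 38.2% of all, and 20 (10.1%) did not overlap, compared with 3.62%. Without that library 61 (30.8%) did not overlap, compared with 6.67%. The cells of different time points came from the same sorted pools, so these samples share their origin.

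Read in the other direction, 149 of the 1744 higher ones had been called at the other times in either direction, which is 8.94% of those tested there, and 21 of the 645 lower ones (3.41%), compared with 4.37% of all clusters tested. The counts were 290 (10.9%) and 64 (5.65%) without Control replicate 2. The mean difference at the other times had the same sign in 61.0% of the higher ones, compared with 52.0% of all clusters, and in 60.9% of the lower ones, compared with 48.0%.

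A fit with all 36 samples, which shares 1 estimate of the spread, called 56 of 16723 clusters at 24 h (0.335%), 54 of them higher in Ikaros. Without Control replicate 2 it called 100 of 16722 (0.598%), of which 93 were higher, and 39 of the 56 were among them. With the shares of empty positions and of exact 0 or 1 levels as covariates, 4 and 5 clusters were called. Of the 56, 27 (48.2%) were also called outside 24 h, compared with 4.37% of all, and 47 (83.9%) lay within 1000 bp of a start, compared with 81.1% of all. Both fits drew their spread from the same 30 samples, so the 2 sets of calls are not independent. Ikaros was higher by over 5 points in 31 of the 56 and lower by over 5 points in 2. Examples, chosen after their values were seen, are Mgrn1, a ubiquitin ligase (chr16:4885835-4886773), with 95.6% ± 0.504 in Ikaros and 86.6% ± 2.00 in Control, and Klf4, a transcription factor that restrains B-cell proliferation (chr4:55532219-55532296), with 98.6% ± 1.25 and 80.7% ± 14.9 (SD, n = 3 each). In Klf4 the library labelled Control replicate 2 had 97.1%, close to the lowest Ikaros sample at 97.8%, and the others 68.0% and 77.1%. The adjusted p was 0.00109 for Mgrn1 and 0.0477 for Klf4, and 0.00381 and 0.00165 without that library. With the covariates these were 0.134 and 0.404, and 0.187 and 0.0908 without that library, so both calls were lost. The SE in M-value was 0.753 for Klf4 in the fit of 36, against 1.13 with 6 samples. For Mgrn1 it rose, from 0.171 with 6 samples to 0.293. Ttc38, described below, was called with overlapping groups, and its SE was 0.296 against 0.795. Whether the spread at 24 h was that of the other times was not tested.

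Whether 24 h stood apart from the cells before induction was tested as a difference of differences. Set against 0 h, 0 of 16723 clusters (0%) passed limma, with 1691 at an unadjusted p under 0.05. Set against the mean difference of the other 5 times, 10 of 16723 (0.0598%) passed, with Ikaros gaining on Control in all 10. The count was 0 without Control replicate 2, 0 without Control replicate 3 and 0 with the coverage measures as covariates, and it was 155 without Ikaros replicate 3. With the batch of the labels as a block it was 3, and those 3 (Rtn4rl2, Gm37647 and Prrc2a) were among the 10. The 10 clusters are therefore given as values.

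Rtn4rl2, a receptor of the Nogo receptor family on neurons, was first among them. Its cluster (chr2:84886621-84887092, 71 cytosines, over the start and coding sequence) had 81.0%, 74.5% and 80.1% in Ikaros replicates 1 to 3 and 59.8%, 50.7% and 51.9% in Control replicates 1 to 3. The groups were 14.7 points apart at their nearest samples, and the difference was 24.4 points with all samples and 22.7 without Control replicate 2. At 0, 2, 6, 12 and 18 h the Ikaros means were 58.2%, 62.2%, 62.4%, 57.0% and 47.0% and the Control means 60.1%, 54.1%, 56.4%, 55.4% and 55.2%. The Ikaros mean at 24 h, 78.5%, was above each of these, and the Control mean of 54.1% was at the lower end of the Control means. The difference of differences in M-value was 2.47 (SE 0.368, adjusted p = 0.00774). The adjusted p was 0.0977 without Control replicate 2, 0.0817 without Control replicate 3 and 0.0758 with the covariates, and ranged over all alternatives from 0.00292 to 0.156. In the fit of the 24 h contrast with all 36 samples the cluster passed with an adjusted p of 0.000519, and of 0.0265 with the covariates. Both values rose without Control replicate 2, to 0.00214 and 0.0573, so the call with the covariates was lost.

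Ttc38, a protein with tetratricopeptide repeats, had 49.1%, 76.0% and 75.5% in Ikaros and 52.2%, 44.5% and 46.3% in Control, so that 1 Ikaros sample lay among the Controls. The other 8 clusters differed by 0.640 to 6.98 points. Near Gm37647, an intergenic cluster (chr3:8767644-8767787) was at 100% in all 3 Ikaros samples and at 95.6%, 91.6% and 91.8% in Control. Prrc2a, an RNA-binding protein, was at 2.60%, 1.48% and 1.40% in Ikaros and at 0.462%, 0.0958% and 0.161% in Control over its start (chr17:35164194-35164881). Also among them were Cul4b, a ubiquitin ligase scaffold, Slmap, a membrane protein, Sec23a, a subunit of the COPII vesicle coat, Wdr24, a subunit of a complex that signals amino acids to mTORC1, Dhx58, a regulator of the RNA sensor RIG-I, and Gm49736, a predicted gene. At the other times the Ikaros mean of 4 of the 10 clusters was under 10% and that of 3 over 90%. Near these ends of the scale a difference of a few points is a large difference in M-value, and at 24 h more levels of the Ikaros samples were exactly 0 or 1.

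**Figure D5:**
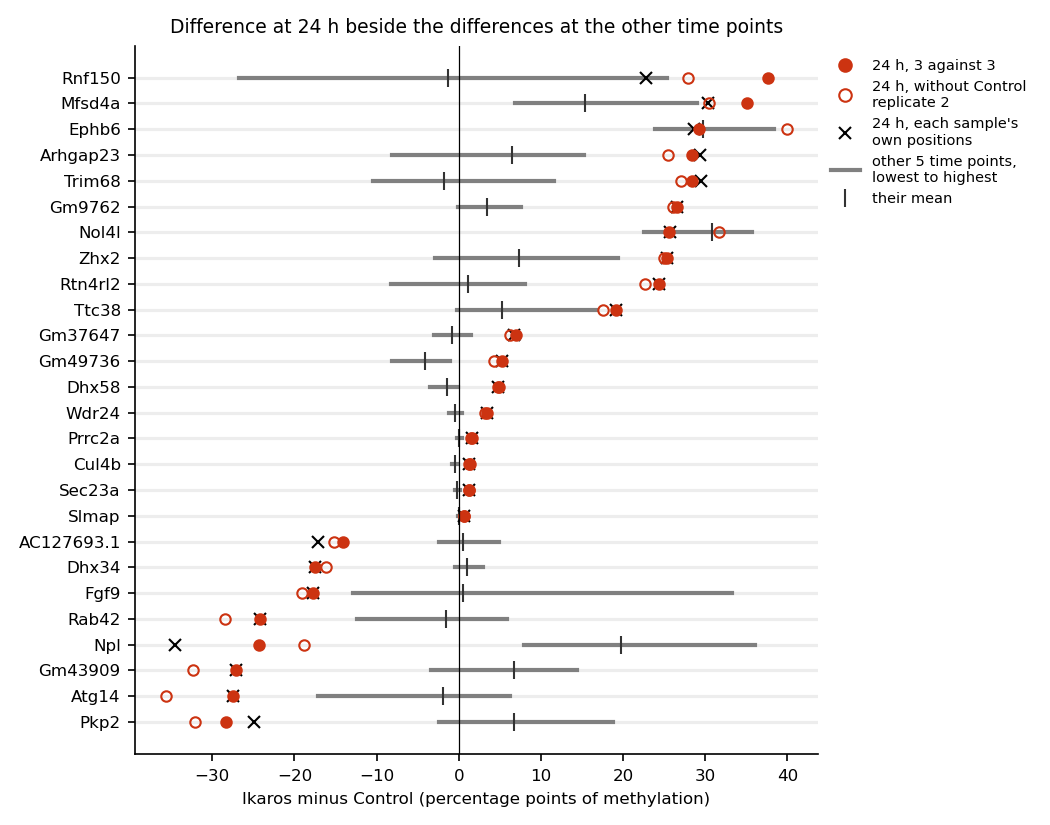
Ikaros minus Control in percentage points of methylation for the 16 clusters of largest non-overlapping difference and the 10 clusters where 24 h differed from the other times. Filled circles are the 24 h difference, open circles the same without Control replicate 2, crosses the 24 h difference over each sample's own positions, which is the scale of the other times, grey bars the lowest to highest difference at 0, 2, 6, 12 and 18 h and ticks their mean. Ephb6 and Nol4l lie on their bars or near them, the cross of Rnf150 lies on its bar, Rtn4rl2 lies at 24.4 against a bar from -8.19 to 8.07, and Npl lies on the other side of 0 from its bar.

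Ikzf1 itself, the gene of Ikaros, had 3 clusters over annotated starts (chr11:11685400-11685649, chr11:11685839-11686045 and chr11:11686154-11686297). Their levels were from 94.6% to 100% in all 6 samples and differed by 0.16, 0.71 and 0.61 points, with overlapping groups. The differences were -0.015, 1.07 and -0.75 points without Control replicate 2, so that the sign turned in the first and the third. None of the 3 overlapped coding sequence, so they do not show the introduced copy.

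Transcription factors of the B lineage were mostly unmethylated near their starts. Of 28 genes, 23 had 44 such clusters, 35 of them under 10%, and their median difference was 0.24 points, compared with 0.18 over all clusters. The groups were apart in 4 clusters with Ikaros higher (9.09%) and 3 lower (6.82%), compared with 9.78% and 3.62% of all clusters. When Control replicate 2 was left out they were apart in 8 (18.2%) and 3 (6.82%), compared with 15.7% and 6.67%. Id3, an inhibitor of E proteins, showed the largest difference in the list. Its cluster over the start and coding sequence (chr4:136143719-136144272) had 31.2%, 42.5% and 30.2% in Ikaros and 24.5%, 25.6% and 22.0% in Control, and the series differed at the other times by 6.69 points on average. The adjusted p in the fit of all 36 samples was 0.0459, and 0.0653 without Control replicate 2. With the covariates it was 0.506 and 0.560, so the call was lost in each. Ikzf3, which codes for the Ikaros relative Aiolos, had 27.1%, 43.4% and 33.8% in Ikaros and 26.3%, 20.9% and 29.3% in Control, with overlapping groups. Klf2, a quiescence factor, had 86.0%, 93.8% and 92.3% and 82.0%, 86.5% and 83.8%. Both were called higher in Ikaros at the other times, with adjusted p of 4.14e-05 and 0.00989.

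The pre-B receptor, IL-7 and recombination list had clusters at 13 genes (16 clusters, median difference 0.29 points). None was apart with Ikaros higher, compared with 9.78% of all. With Ikaros lower 1 was apart (6.25%, compared with 3.62% of all), Socs2, with a difference of -0.16 points. There was 1 apart in each direction without Control replicate 2 (6.25% each, compared with 15.7% higher and 6.67% lower of all). Prkcb, a kinase below the B-cell receptor, had 81.3%, 90.5% and 80.8% in Ikaros and 82.5%, 78.9% and 73.2% in Control. Syk and Socs3 differed by 2.62 and 1.82 points with overlapping groups (1.55 and 2.45 without Control replicate 2). Of the Myc, glycolysis and nutrient uptake list, 33 of 35 clusters were under 10% and the median difference was 0.042 points. With all samples 1 of the 35 was apart (2.86% higher in Ikaros, compared with 9.78% of all), and without Control replicate 2 it was 4 (11.4%, compared with 15.7%). The 1 was a cluster of Mycn, with 10.9%, 7.37% and 7.09% in Ikaros and 1.57%, 5.61% and 3.56% in Control. Its adjusted p in the fit of all 36 samples was 0.194, and 0.0293 without Control replicate 2. Aldoa, a glycolytic enzyme, had 27.7%, 64.1% and 43.9% and 18.6%, 30.2% and 26.0% (chr7:126808831-126809043), so that its lowest Ikaros sample lay below the highest Control. Tpi1, also glycolytic, differed by 5.31 points with overlapping groups, and by 2.72 points without Control replicate 2.

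In the cell cycle list (33 clusters, median 0.083 points), 1 cluster was apart with Ikaros higher (3.03%, compared with 9.78% of all) and 2 lower (6.06%, compared with 3.62%). The counts were 2 (6.06%) in each direction without Control replicate 2, compared with 15.7% and 6.67% of all. Ccnd1, a D cyclin, and Cdkn2a, an inhibitor of the cyclin-dependent kinases, differed by 7.61 and 4.95 points with overlapping groups, and by 5.89 and 1.87 points without that library. Cdkn1c had 97.8%, 99.1% and 98.5% in Ikaros and 96.8%, 96.9% and 97.0% in Control. All 26 clusters of the NuRD complex differed by less than 1 point, and 24 of them were under 10%. In the 8393 clusters under 10% at the other times the median absolute difference was 0.258 points. Of the 26, 2 were apart with Ikaros higher (7.69%) and 1 lower (3.85%), compared with 9.78% and 3.62% of all. The largest NuRD differences were Mbd3 with 0.87 (-0.26 without that library), Rbbp7 with 0.80 and Gatad2b with -0.62 points. Of 19 clusters of the DNA methylation and demethylation list, Tet1, which oxidises methylcytosine, differed most, with 82.2%, 80.2% and 91.0% in Ikaros and 90.1%, 91.1% and 89.1% in Control. Tet2 differed by 1.65 points (-5.14 without Control replicate 2). The genes that the study names (13 clusters of 9 genes) had a median difference of 0.45 points. No cluster was apart, compared with 9.78% higher and 3.62% lower of all. Without Control replicate 2, 1 was apart with Ikaros higher (7.69%, compared with 15.7% of all), which was Myod1. The largest differences there were Myod1 with 1.64 (2.62 without that library), Foxo1 with 1.27 and Ikzf1 with 0.71 points.

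Markers of other cell types were measured near the starts of 3 T-cell, 3 myeloid, 2 erythroid and 2 fibroblast genes. These lists had 5, 6, 2 and 4 clusters. Of these 17, 1 was apart with Ikaros higher (5.88%, compared with 9.78% of all), and 3 without Control replicate 2 (17.6%, compared with 15.7%), when a cluster of Lck and the second cluster of Twist1 joined it. The latter differed by 1.51 points, and by 2.47 without that library. The 1 belonged to Tcf7, a T-cell transcription factor, and had 65.0%, 54.1% and 51.4% in Ikaros and 45.5%, 45.0% and 46.4% in Control over its start (chr11:52282572-52283697). In the fit of all 36 samples its adjusted p was 0.0229, with 0.0447 without Control replicate 2, 0.0792 with the covariates and 0.124 with both changes, and the series differed by 4.66 points at the other times. Gata3 had 20.8%, 80.8% and 67.6% in Ikaros and 47.8%, 12.5% and 46.4% in Control, the widest spread within the groups among these genes, and its difference fell from 20.8 to 9.30 points without Control replicate 2. Lck differed by 2.59 points (3.40 without that library). The myeloid genes Fcgr3, Cebpe and Cebpa differed by 3.12, 0.83 and 0.62 points, the erythroid genes Epor and Klf1 by -1.81 and -0.059 points, and the fibroblast genes Pdgfra and Twist1 (its cluster of largest difference) by 4.11 and -1.69 points, each with overlapping groups. Without that library Fcgr3, Cebpe and Klf1 differed by 1.87, 2.00 and 0.15 points.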

How the data were processed

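RRBS was measured in 36 samples of B3 cells, of which the 6 of 24 h were compared here. The authors trimmed the reads with Trim-Galore, mapped them to GRCm38 with Bismark 0.10.1, capped the coverage at the most covered sites and applied the BiSeq smoother within CpG clusters. The authors deposited each smoothed level as a fraction from 0 to 1. Smoothing makes neighbouring positions alike and can carry a level of 0 or 1 along a cluster. A table of log2 M-values that the authors deposited was not used, since the same transform was computed from the levels. The tables hold no reads, and the methods give only an approximate read count common to all samples. The depth at each position is thus unknown, and precision is known only from the spread between replicates.

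Groups, replicate numbers and batches came from the labels. Clusters were tested with limma 3.58.1 in R 4.3.3 (lmFit, eBayes) on mean M-values, with Benjamini-Hochberg adjustment over all clusters. The 536 clusters without variation were left out. Mean levels were compared with exact two-sided permutation tests in scipy 1.17.1. Genes and starts came from GENCODE M21 (GRCm38), counting a cluster as near a start within 1000 bp. On chromosomes 2, 11 and 14, at least 99.98% of the positions used fell on a CG of GRCm38.p6. Values at other time points were averaged over each sample's own positions.

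Clusters were named by size of difference among those with separate groups (8 in each direction), by the largest difference in each gene list (up to 3, with 1 result not reported here), by the smallest p of the tests against other times (the first 3 in full) and for Ikzf1. The members and lists were chosen with earlier results of these data known. A replicate number marks a shared batch within a time point in the labels, so numbers pair the samples of 24 h. Across times the number is not the batch, since the labels put the 0 h samples numbered 2 in another batch than all later ones. The deviations of paired samples from their group means had correlations of -0.067, -0.025 and 0.014. The replicate number entered as a block in an alternative fit, as did the 4 batches in the fits of 36 samples (chosen after seeing the data), and the alternatives are given in the closing section. The other omics data of the study were not used here.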

Additional observations from a re-analysis of the deposited data

Results flagged for a closer look

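The difference between the series at 24 h was not that of the other time points in 10 clusters (limma, adjusted p under 0.05, difference of differences in M-value tested directly). The 3 with the smallest p were Rtn4rl2, Gm37647 and Prrc2a. The difference of differences was 2.47 in Rtn4rl2, 2.82 near Gm37647 and 0.65 in Prrc2a on the log2 scale, with SEs of 0.37, 0.49 and 0.11 and adjusted p of 0.00774, 0.0271 and 0.0271. Over the alternatives the adjusted p ranged from 0.00292 to 0.156, from 0.00891 to 0.299 and from 1.4e-05 to 0.137. The count of 10 was 0 without Control replicate 2, where the adjusted p of these 3 were 0.0977, 0.133 and 0.133. Without Control replicate 3 the count was also 0, and they were 0.0817, 0.128 and 0.128. In all 3 clusters each Ikaros sample lay above each Control sample at 24 h, the library labelled Control 24 h replicate 2 included. These values entered the test that chose the clusters, so the separation is a description and not separate support. The share of levels at exactly 0 or 1 was higher in the Ikaros samples of 24 h, and with it and the share of empty positions as covariates the adjusted p were 0.0758, 0.136 and 0.137.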

How the results depend on the processing

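With 6 samples, 0 clusters passed the threshold, and the count was also 0 with levels in place of M-values, limits of 0.05 and 0.95, the replicate block, own positions, at least 10 positions, levels from 10% to 90%, autosomes, and a trend with robust estimation. It was 1 with positions complete in all 36 samples, 56 with all 36 samples in the fit and 4 with the coverage measures added to that fit, which was chosen after seeing the data. Leaving out 1 sample gave 0 to 1 clusters, the 1 without Ikaros replicate 3. Without Control replicate 2 the count was 0, with 100 in the fit of all samples and 5 with the coverage measures. A further sample left out gave 0 to 0, and the replicate block gave 0, both chosen after seeing the data.

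Against 0 h the count of 0 became 4 with levels and 7 with limits of 0.05 and 0.95, and 0 to 82 when a sample of 24 h was left out. The 82 came without Ikaros replicate 3, and 32, 21 and 6 without Ikaros replicate 1, Ikaros replicate 2 and Control replicate 1. Against the other times the count of 10 became 3 with levels, 6 on autosomes, 0 with the coverage measures and 13 with limits of 0.05 and 0.95, of which 3 were among the 10. With the replicate number as a replicate block it was 11, of which 8 were among the 10, and Dhx58 and Sec23a were lost with an adjusted p of 0.0611 each. With the batch label as the replicate block, which separates batch 2 of 0 h from batch 3 and was chosen after seeing the data, it was 3, all among the 10, and against 0 h it was 0. It was 0 to 155 when a sample was left out, 0 without Control replicate 2 or Control replicate 3, 59, 64 and 155 without Ikaros replicates 1, 2 and 3. The cause of these changes was not tested.

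The mean level over all clusters was higher in Ikaros under each alternative, from 0.532 to 0.607 points when a sample was left out. It was 0.536 points over single positions, 0.20 in M-value, and 0.563 points within batches, where the sign-flip of 3 pairs gave exact p = 0.25, the smallest it can give. The 26 clusters named by size of difference or by the tests against other times kept the sign of their difference in all 205 values recomputed without a sample, over own positions or over positions complete in 36 samples. Beside the clusters named above as resting on 1 library, it moved by over 1.5 times in Rnf150 (22.8 points over own positions) and in Cul4b (1.95 points over positions complete in 36 samples). Among 38 further clusters, named from the gene lists, for Ikzf1 or as examples, the size of the difference moved by over 1.5 times in 93 of 302 such values (13 without Control replicate 2) and its sign turned in 20, of which 5 were without Control replicate 2 (a pair of Ikzf1 clusters, Tet2, Mbd3 and Klf1). Depth at each position is unknown, so no limit of detection can be given.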
